A study of Homo sapiens with 6 samples.

Results

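The homeobox regulators OTX1, OTX2, SIX3, SIX6, RAX, HESX1, EMX2, GBX2, VAX1 and DMBX1, which pattern the anterior brain, the eye and the midbrain-hindbrain border, were examined in human induced pluripotent stem cell (hiPSC) aggregates. These 10 genes were found among the 19977 genes of the count files by their Ensembl identifiers in GENCODE 44, and all 10 had enough counts to be tested. In PEG and HS, 5 of them (OTX2, SIX3, DMBX1, OTX1 and HESX1) were lower than in E8 control, with OTX2 the furthest at 4.28-fold. SIX6 and GBX2 were higher, each by 1.80-fold, and RAX, EMX2 and VAX1 did not pass the test.

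The cells were the NCRM-1 hiPSC line, wild type by its label, seeded as single cells and grown for 4 days as aggregates in vertical wheel bioreactors. The 3 control libraries came from E8, a defined medium for pluripotent cells, and the other 3 from E8 with 10 mg/ml of the polymer polyethylene glycol (PEG) and 0.1 µg/ml of the sulphated polysaccharide heparin sodium salt (HS), and 50% of the medium was replaced on day 2. The labels read as 1 bioreactor for each medium, so a difference of vessel cannot be told apart from one of medium, and p-values measure the spread between libraries that may be of one culture. The treatment text of the labels describes PEG and heparin for all 6 libraries, and the treatment named for each library was followed.

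Homeobox proteins bind short AT-rich DNA motifs, commonly with a TAAT core, and their combination in a cell gives a position along the head-to-tail axis. OTX2 is required for forebrain and midbrain and opposes GBX2, which is required for the anterior hindbrain, and the border between them sets the midbrain-hindbrain organizer. OTX2 and GBX2 are also expressed earlier, in pluripotent cells. Roles in the anterior neural plate, eye field and pituitary are known for SIX3, SIX6, RAX, VAX1 and HESX1.

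The sequence before the start is given for OTX2, the gene that fell furthest, and for SIX6 and GBX2, the genes that rose. Each stretch holds the 250 bases upstream of an annotated start in RefSeq (GRCh38.p14), written 5′ to 3′ on the strand of the gene, with TAAT and its reverse complement ATTA in capitals. OTX2 has 2 such starts. Both of its windows lie within the span of OTX2 and overlap no GENCODE exon, the window of SIX6 lies in an intron of C14orf39 on the opposite strand, and that of GBX2 lies in an intron of the antisense RNA GBX2-AS1.
OTX2 start 1, chr14:56810480-56810729, minus strand: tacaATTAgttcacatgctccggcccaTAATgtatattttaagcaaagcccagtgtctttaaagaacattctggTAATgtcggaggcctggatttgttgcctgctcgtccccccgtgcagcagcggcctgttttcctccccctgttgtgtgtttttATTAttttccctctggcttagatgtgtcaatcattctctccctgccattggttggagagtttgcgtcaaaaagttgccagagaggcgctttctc
OTX2 start 2, chr14:56805668-56805917, minus strand: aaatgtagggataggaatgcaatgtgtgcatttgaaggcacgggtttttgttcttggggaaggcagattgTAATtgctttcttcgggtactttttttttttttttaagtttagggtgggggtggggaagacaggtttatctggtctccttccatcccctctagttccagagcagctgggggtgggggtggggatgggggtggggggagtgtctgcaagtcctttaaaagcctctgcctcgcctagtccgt
SIX6, chr14:60508896-60509145, plus strand: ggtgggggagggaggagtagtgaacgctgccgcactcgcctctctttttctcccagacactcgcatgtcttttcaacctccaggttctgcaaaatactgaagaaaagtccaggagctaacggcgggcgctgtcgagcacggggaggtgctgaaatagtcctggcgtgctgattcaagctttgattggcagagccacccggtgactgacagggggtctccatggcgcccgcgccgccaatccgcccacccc
GBX2, chr2:236168387-236168636, minus strand: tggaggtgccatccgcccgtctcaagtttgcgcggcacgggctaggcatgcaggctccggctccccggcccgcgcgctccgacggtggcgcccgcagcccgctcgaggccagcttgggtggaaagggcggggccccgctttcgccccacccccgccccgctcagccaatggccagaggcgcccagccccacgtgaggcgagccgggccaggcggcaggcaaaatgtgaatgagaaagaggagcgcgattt

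The first OTX2 window held 4 matches to TAAT and the second held 1, and the SIX6 and GBX2 windows held 0. This did not follow the direction of change, since among the other genes that fell OTX1 held 0 and DMBX1 held 1, and HESX1 held 0 at one start and 6 at the other. The G and C content was 47.2% and 50.0% in the OTX2 windows, 60.0% in SIX6 and 72.0% in GBX2. It was also high in OTX1 (75.2%), DMBX1 (73.2%) and the first start of HESX1 (79.2%), but was 43.6% at the second start of HESX1. The median was 58.0% over the 35116 windows of all genes. Of these windows, 47.4% held TAAT on either strand. The letters TAATCC, a motif bound by OTX proteins, stood in 5.62% of all windows, TGATAC, bound by SIX3 and its relatives, in 3.80%, and TAATTA, which contains both TAAT and ATTA, in 4.35%. Neither TAATCC nor TGATAC stood in the 11 windows available for 9 of the 10 genes, which says only that these letters are absent there.

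OTX2 (ENSG00000165588, GRCh38 chromosome 14, 56799905 to 56816693, minus strand) was the most abundant of the 10 genes in E8 control. Its level in CPM, the share of a library's counts scaled to a common total, was 17.1, 19.4 and 19.3 in PEG and HS libraries 1 to 3 and 78.9, 81.2 and 78.2 in the control libraries. The media were far apart, with each control library above 78 CPM and each PEG and HS library under 20 CPM. The mean fell from 79.4 ± 1.55 CPM to 18.6 ± 1.31 CPM (SD, n = 3 per medium), a log2 fold change of -2.10 with a standard error (SE) of 0.047 and a 95% interval of -2.20 to -2.00 (edgeR quasi-likelihood test, Benjamini-Hochberg adjusted p = 2.08e-13). Ordered by the size of the fall, OTX2 ranked 93 among the 2157 genes lower in PEG and HS. These are bulk libraries, in which fewer expressing cells and less RNA per cell cannot be told apart.

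Its paralog OTX1 (ENSG00000115507, chromosome 2, 63050057 to 63057836, plus strand), a regulator of the cortex and inner ear, was much less abundant. OTX1 was at 1.57, 1.10 and 1.80 CPM with PEG and HS and at 3.60, 3.51 and 2.66 CPM with E8 alone. No PEG and HS library reached the lowest control library. The difference was -1.11 on the log2 scale (SE 0.19, edgeR adjusted p = 0.000596). DMBX1 (ENSG00000197587, chromosome 1, 46489836 to 46516216, plus strand), an OTX-related gene of the midbrain and diencephalon that acts as a repressor, was measured at 1.75, 1.24 and 1.77 CPM with PEG and HS against 3.26, 4.09 and 3.85 CPM in control. The media again did not overlap, and DMBX1 was 2.34-fold lower than in control (log2 fold change -1.23, SE 0.17, edgeR adjusted p = 5.76e-05). DMBX1 shared 3.21% of its transcript sequence, in words of 31 bases, with other genes, most often with PLEKHA5, and the other 9 genes shared at most 0.528%.

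SIX3 (ENSG00000138083, chromosome 2, 44941702 to 44946071, plus strand) encodes a repressor of Wnt signalling needed for the forebrain and eye. Its level was 3.59, 3.96 and 3.60 CPM with PEG and HS and 9.08, 9.51 and 9.73 CPM with E8 alone. Replicates lay close together and the 2 media did not meet. The mean was 3.72 ± 0.212 CPM against 9.44 ± 0.329 CPM, a 2.55-fold fall (log2 fold change -1.35, SE 0.088, edgeR adjusted p = 1.91e-08). The antisense RNA SIX3-AS1 covers 7.63% of the SIX3 exon bases and is not among the genes counted. The use of strand in counting is not given in the sources used here, so its reads cannot be told apart from those of SIX3, and the same holds for GBX2-AS1 over 9.48% of GBX2 and EMX2OS over 10.7% of EMX2.

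SIX6 (ENSG00000184302, chromosome 14, 60509146 to 60512850, plus strand), the closest relative of SIX3 and a gene of retina, optic nerve and pituitary, moved the other way. In PEG and HS it stood at 12.7, 14.0 and 14.1 CPM, while the control libraries held 7.52, 7.69 and 7.43 CPM. All PEG and HS libraries were above all control libraries. The difference was 0.85 on the log2 scale (SE 0.071, edgeR adjusted p = 3.45e-07), or 13.6 ± 0.771 CPM against 7.55 ± 0.136 CPM. No exon base of SIX6 is shared with C14orf39, in whose span it lies, and C14orf39 itself was at 0.877 ± 0.147 CPM with PEG and HS and 0.586 ± 0.0286 CPM in control, with a difference that did not pass the test (edgeR adjusted p = 0.154).

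GBX2 (ENSG00000168505, chromosome 2, 236165236 to 236168386, minus strand), the counterpart of OTX2 at the midbrain-hindbrain border, also rose. It was measured at 17.0, 18.4 and 16.5 CPM with PEG and HS and at 9.08, 9.70 and 9.95 CPM with E8 alone. The lowest PEG and HS library was far above the highest control library. Means were 17.3 ± 1.005 CPM and 9.58 ± 0.446 CPM (log2 fold change 0.85, SE 0.068, edgeR adjusted p = 2.01e-07).

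HESX1 (ENSG00000163666, chromosome 3, 57197838 to 57227606, minus strand), a paired-like repressor needed for the forebrain and pituitary, showed the smallest change among the 7 genes that passed the test. The PEG and HS libraries held 7.65, 7.61 and 8.60 CPM and the control libraries 10.4, 10.7 and 10.3 CPM. The groups did not overlap, and HESX1 was 1.31-fold lower than in control (log2 fold change -0.39, SE 0.075, edgeR adjusted p = 0.0012).

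The 3 remaining genes were not called. RAX (ENSG00000134438, chromosome 18, 59267035 to 59274086, minus strand), a gene of the eye field, was at 0.89, 0.92 and 1.27 CPM with PEG and HS and 1.33, 2.03 and 0.89 CPM in control. The control libraries of RAX spread widely, the groups overlapped, and the log2 fold change of -0.45 had an interval of -1.08 to 0.17 (edgeR adjusted p = 0.295). EMX2 (ENSG00000170370, chromosome 10, 117542445 to 117549546, plus strand), a gene of the dorsal telencephalon, had nearly equal means of 0.526 ± 0.231 CPM and 0.521 ± 0.189 CPM, with an interval of -0.88 to 0.89 on the log2 scale (edgeR adjusted p = 0.998). VAX1 (ENSG00000148704, chromosome 10, 117128521 to 117138301, minus strand), a gene of the ventral forebrain and optic stalk, had 1, 7 and 2 counts with PEG and HS and 4, 6 and 5 counts in control. Its interval ran from -2.08 to 0.98 (edgeR adjusted p = 0.633).

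**Figure D1:**
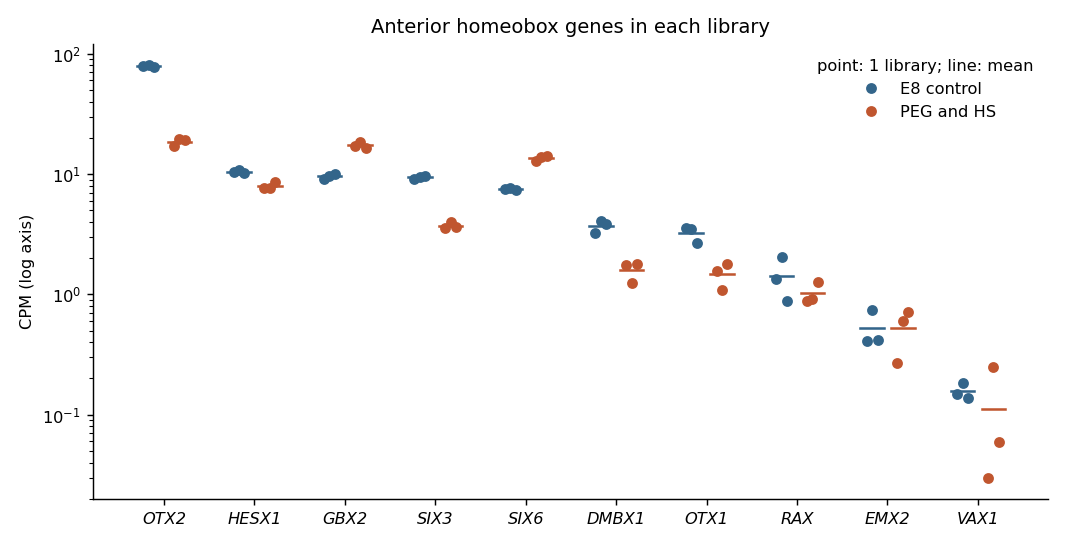
Level of each anterior homeobox gene in each library, in CPM on a log axis, where a point is 1 library and a line the mean of 3. OTX2, SIX3, DMBX1, OTX1 and HESX1 sit lower in PEG and HS, SIX6 and GBX2 sit higher, and the points of RAX, EMX2 and VAX1 overlap between the media.

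Counted together, 5 of the 10 genes were called lower in PEG and HS, where 13.1% of the 16505 genes tested were lower, and 2 were called higher, against 12.2% of all genes. The 7 genes called make 70.0% of the set, beside 25.3% of all genes tested. The same 7 genes were those whose libraries did not overlap between the media, which held for 39.3% of all genes. The median log2 fold change was -0.50 over the 10 genes and 0.0031 over all genes tested. Since the genes were chosen with results of these data known, these shares describe the set and are no test of it.

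**Figure D2:**
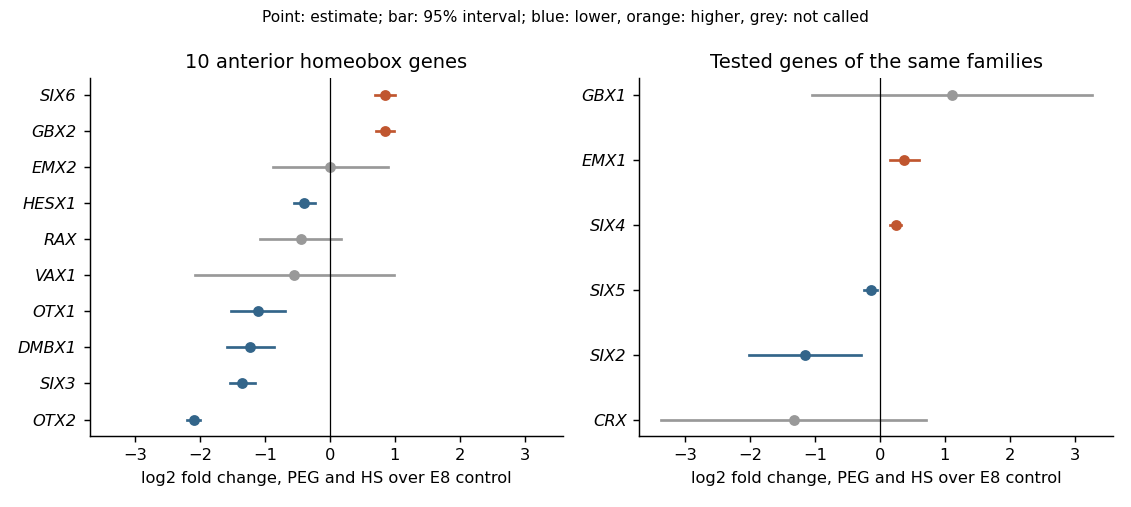
Log2 fold change of PEG and HS over E8 control for the 10 anterior homeobox genes (left) and tested genes of the same families (right), with 95% intervals. OTX2 at -2.10 is the lowest of the left panel and SIX6 and GBX2 at 0.85 the highest, while most genes on the right lie nearer to 0 or have wide intervals.

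Levels of different genes can be set side by side per kilobase of annotated exon. On that scale the order in E8 control was OTX2 (mean 23.4 CPM per kb), HESX1 (7.01), GBX2 (4.11), SIX3 (3.48), SIX6 (2.91), DMBX1 (0.740), OTX1 (0.673), RAX (0.374), EMX2 (0.160) and VAX1 (0.0272). DMBX1 and OTX1 were the one pair of neighbours in this order whose libraries overlapped. In PEG and HS the order began with GBX2 (7.42 CPM per kb), followed by OTX2 (5.47), HESX1 (5.33), SIX6 (5.25), SIX3 (1.37), DMBX1 (0.314), OTX1 (0.308), RAX (0.271), EMX2 (0.161) and VAX1 (0.0194). Here OTX2 overlapped with HESX1 and HESX1 with SIX6, so the 3 genes after GBX2 held no clear order, and the libraries of OTX1 overlapped with those of DMBX1 and RAX. Thus on this scale GBX2 passed from the third place to the first, and SIX6 passed SIX3. The first place of GBX2 depends on the annotated exon lengths. In CPM the mean of OTX2 stayed above that of GBX2 in PEG and HS (18.6 against 17.3 CPM).

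**Figure D3:**
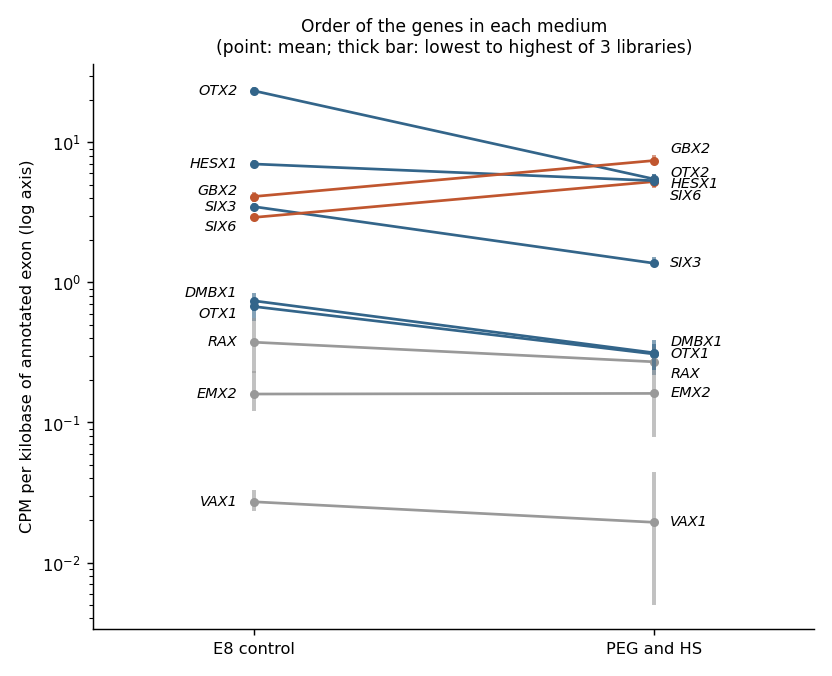
Mean level of each gene in CPM per kilobase of annotated exon, on a log axis, in E8 control (left) and PEG and HS (right), where thick bars run from the lowest to the highest of 3 libraries. The line of OTX2 falls from 23.4 to 5.47 and crosses that of GBX2, which climbs from 4.11 to 7.42. The lines of SIX3 and SIX6 cross as well. In CPM without division by exon length, the mean of OTX2 stays above that of GBX2 in both media.

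Ratios within a library do not depend on library size, and they were computed for 3 pairs. The ratio of OTX2 to GBX2 in CPM was 1.01, 1.05 and 1.17 in PEG and HS and 8.69, 8.37 and 7.86 in E8 control. This ratio was thus 7.73-fold lower in PEG and HS, and the media were far from overlapping. The ratio of SIX3 to SIX6 was 0.282, 0.284 and 0.255 in PEG and HS and 1.21, 1.24 and 1.31 in control, a 4.57-fold difference. For OTX1 to OTX2 the ratio was 0.0807 ± 0.0210 against 0.0409 ± 0.00611, since OTX1 fell less than OTX2. A two-sided exact permutation test gave p = 0.1 for each of the 3 ratios. This is the smallest value that 3 against 3 libraries allow. OTX2 and SIX3 were lower and GBX2 and SIX6 higher, so their ratios restate those changes and are no separate evidence.

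**Figure D4:**
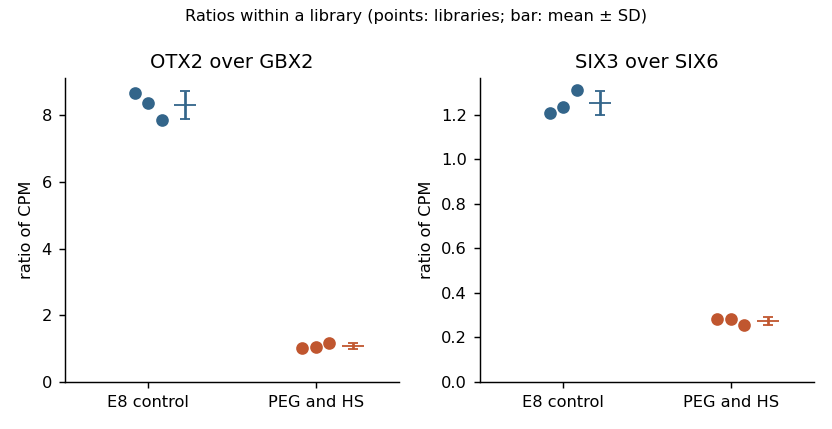
Ratio of OTX2 to GBX2 (left) and of SIX3 to SIX6 (right) in CPM, where points are libraries and bars the mean with its SD. The control libraries lie at 7.86 to 8.69 and at 1.21 to 1.31, while the PEG and HS libraries lie at 1.01 to 1.17 and at 0.255 to 0.284.

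Relatives of these genes in the same homeobox families were read beside them. Of 9 such paralogs 7 were tested, 2 were called lower and 2 higher (57.1% called, beside 25.3% of all genes tested), and their median log2 fold change was 0.24. With DESeq2 the number called was 1. SIX4, expressed in muscle and sensory precursors, was at 56.3 ± 1.27 CPM with PEG and HS and 47.7 ± 0.633 CPM with E8 alone (log2 fold change 0.24, SE 0.036, edgeR adjusted p = 0.000157). EMX1, a gene of the dorsal telencephalon, was at 5.47 ± 0.380 CPM against 4.21 ± 0.152 CPM (edgeR adjusted p = 0.0151), and its call was lost with DESeq2 (adjusted p = 0.065) and without PEG and HS library 1 (edgeR adjusted p = 0.0784). The calls of the other 2 were close to the threshold. SIX2, of the kidney progenitors, was at 0.231 ± 0.0207 CPM against 0.523 ± 0.107 CPM (edgeR adjusted p = 0.0469), and was no longer called when any single library but control library 3 was left out (highest adjusted p = 0.125). SIX5 was at 45.9 ± 0.753 CPM against 50.6 ± 3.40 CPM (edgeR adjusted p = 0.0397), and likewise lost its call without any single library but control library 3 (highest adjusted p = 0.182). CRX and GBX1 were not called at edgeR adjusted p = 0.352 and 0.472, and RAX2 and VAX2 had too few counts to be tested.

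Some relatives lie near one another. On chromosome 2, SIX3 and SIX2 are 59.1 kb apart and both were lower, with the call of SIX2 close to the threshold. SIX6 and SIX4 both lie on chromosome 14 and both were higher, by 1.80-fold and 1.18-fold. They are not nearest neighbours there, and OTX2, 3692 kb from SIX6 on that chromosome, was lower.

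Other regulators of the forebrain and its Wnt antagonists were read from a list of 28 genes, of which 25 were tested. In PEG and HS, 15 were lower and 2 higher (68.0% called, beside 25.3% of all genes tested, of which 13.1% were lower and 12.2% higher), and the median log2 fold change was -0.63. Like the homeobox genes, the lists of relatives and regulators were chosen with earlier results of these data known, so their shares are no test. FEZF1, a zinc finger repressor of the forebrain and olfactory system, was at 3.68, 3.93 and 3.31 CPM with PEG and HS and 20.2, 19.9 and 19.3 CPM in control. Its log2 fold change was -2.45 (SE 0.077, interval -2.61 to -2.28, edgeR adjusted p = 4.67e-12), and no library of one medium came near those of the other. LHX5, a LIM homeobox gene of the forebrain that restrains Wnt signals, fell from 29.6 ± 1.66 CPM to 5.73 ± 0.880 CPM (log2 fold change -2.37, SE 0.086, edgeR adjusted p = 2.25e-11). SOX1, an early neural plate gene, fell by 1.70 on the log2 scale (edgeR adjusted p = 6.51e-07), and the same difference was -1.62 in OLIG3, a neural progenitor gene (edgeR adjusted p = 9.79e-11), and -1.17 in PAX6, of eye and forebrain (edgeR adjusted p = 0.0016).

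Among receptors and secreted Wnt antagonists of the list, the frizzled receptor genes FZD8 and FZD5 fell by 1.29 and 1.08 on the log2 scale (edgeR adjusted p = 1.21e-10 and 1.83e-11). SFRP1 fell from 997 ± 16.8 CPM to 645 ± 19.0 CPM (log2 fold change -0.63, edgeR adjusted p = 1.63e-10), while its relative SFRP2 rose from 486 ± 16.3 CPM to 675 ± 11.6 CPM (log2 fold change 0.48, edgeR adjusted p = 6.62e-09). The zinc finger gene ZIC1 was at 3.94 ± 0.340 CPM with PEG and HS and 7.30 ± 0.453 CPM in control (log2 fold change -0.90, edgeR adjusted p = 8.02e-06). POU3F1, a POU homeobox gene, was the other gene that rose (log2 fold change 0.23, edgeR adjusted p = 0.00714). POU3F1 and SFRP2 are named for being the only 2 genes of this list that rose and were chosen after their values were seen.

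A list of 24 midbrain and hindbrain regulators had 21 tested genes, of which 5 were lower and 2 higher. That is 33.3% called, near the 25.3% of all genes tested, with a median log2 fold change of -0.83. IRX3 and IRX2, Iroquois homeobox genes of the posterior forebrain and midbrain, fell by 2.15 and 1.33 on the log2 scale (edgeR adjusted p = 6.43e-07 and 7.02e-11), and IRX2 went from 69.5 ± 2.38 CPM to 27.8 ± 2.56 CPM. EGR2, a gene of rhombomeres 3 and 5, was at 1.003 ± 0.166 CPM against 1.79 ± 0.0908 CPM (edgeR adjusted p = 0.00857). PAX5, of the midbrain-hindbrain border, was one of those that rose, from 7.22 ± 0.640 CPM to 10.0 ± 0.628 CPM (edgeR adjusted p = 0.000758). Of the genes called lower, WNT1 (0, 1 and 1 counts against 3, 6 and 7) and HOXB4 (0.0926 ± 0.0239 CPM against 0.296 ± 0.0844 CPM), were under 1 CPM in both media and are named here after their values were seen. EN1 and EN2, which mark the border region, had at most 5 counts in any library and were not called (edgeR adjusted p = 0.3 and 0.243).

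**Figure D5:**
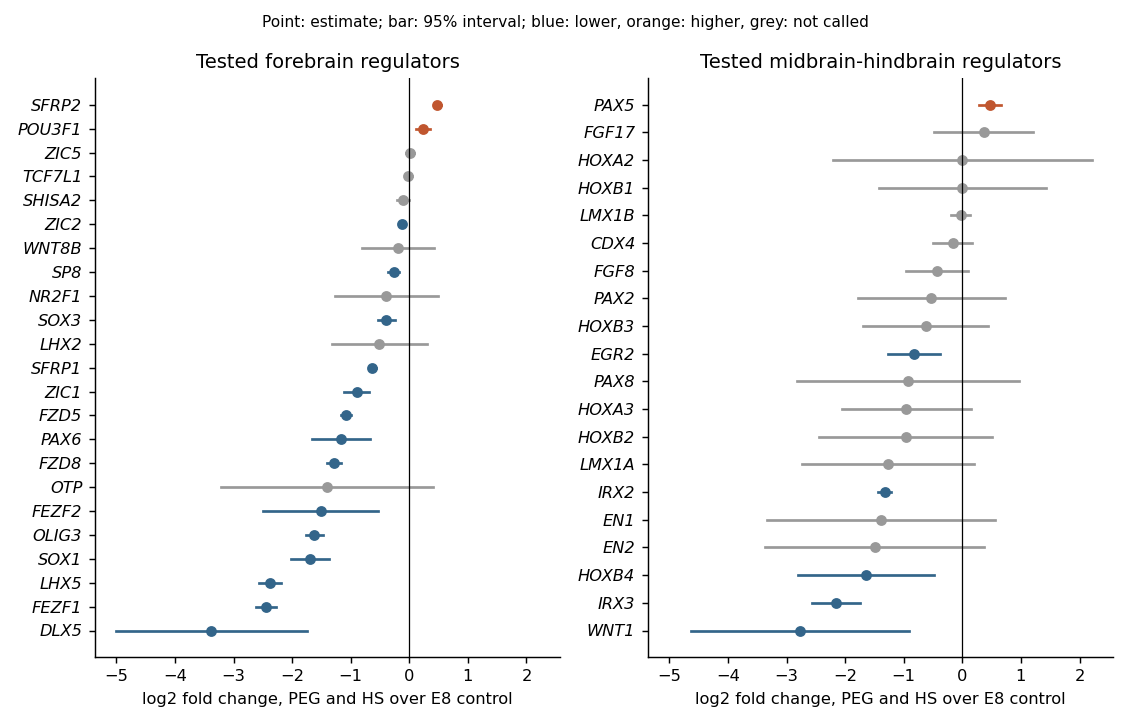
Log2 fold change of PEG and HS over E8 control with 95% intervals for tested forebrain regulators (left) and tested midbrain-hindbrain regulators (right). On the left most genes are called lower, with FEZF1 at -2.45 and LHX5 at -2.37, and SFRP2 and POU3F1 are called higher, while on the right most genes have wide intervals that include 0.

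The genes whose pattern over the 6 libraries was most like that of OTX2 were sought among 13109 genes with at least 1 CPM in each library, by Pearson correlation of log2(CPM + 0.5). They were SMAD4, the shared partner of BMP and Nodal effectors (r = 0.9999), the collagen receptor gene DDR1 (0.9996), the chromatin remodelling gene ARID1B (0.9996), the protocadherin gene PCDH18 (0.9995) and the ligand gene BMP2 (0.9994). The 6 libraries fall into 2 media, so r reflects mainly the step between them and how close the replicates are, and 237 genes had r over 0.99. The size of the step differed, from a log2 fold change of -0.16 in ARID1B and -0.30 in SMAD4 to -1.82 in PCDH18 and -2.24 in BMP2, which went from 17.0 ± 0.435 CPM to 3.59 ± 0.135 CPM.

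Depth was 26991279 to 36185138 counts per library, so 1 count was 0.0276 to 0.0370 CPM before the TMM factor. All 8 pluripotency markers examined were over 1 CPM, with a summed level of 7870 to 8041 CPM with PEG and HS and 7763 to 7876 CPM in control, of which 3 were lower (SOX2, LIN28A and SALL4) and 3 higher (POU5F1, NANOG and DPPA4). Over all genes tested, 25.3% were called, 13.1% lower and 12.2% higher, the shares to set beside these marker counts. Among 7 neuron markers 2 were lower (STMN2 and MAP2) and the sum was 281 to 294 CPM against 301 to 311 CPM. Of 7 eye markers, 5 were under 0.1 CPM, among them TYR, RLBP1, RCVRN and CRYAA, and the sum of 96.6 to 99.9 CPM against 140 to 149 CPM was nearly all PMEL, which was lower. Of 8 anterior endoderm markers SOX17, GATA4 and GATA6 were under 0.1 CPM, HHEX was lower and LEFTY1 higher. Their sum was 21.4 to 22.5 CPM against 15.9 to 18.7 CPM. Most of that sum was LEFTY1 (16.2 ± 0.570 CPM against 9.05 ± 1.31 CPM), so it does not stand for the endoderm markers as a set. Of 7 neural crest and placode markers SOX10 was lower and FOXD3 higher (sum 61.6 to 64.1 CPM against 52.8 to 55.6 CPM). Here most of the sum was FOXD3 (51.9 ± 1.91 CPM against 41.6 ± 0.943 CPM). Of 6 mesoderm markers TBX6 was lower and MSGN1 was at 0 (sum 5.47 to 5.63 CPM against 5.97 to 7.34 CPM). The sum of the pluripotency markers overlapped between the media, the other sums did not, and many single markers were not called. The part of these markers in the results for the homeobox genes was not tested.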

How the data were processed

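RNA was measured by sequencing of stranded mRNA libraries, 3 per medium. The authors deposited raw counts per gene, 1 library per file. The submitters' processing notes name Trim Galore 0.6.7, STAR 2.6.1 and GRCh38, while the counting tool, its use of strand and its handling of reads that map to several genes are not given in the sources used here. Symbols and coordinates were taken from GENCODE 44, which matched 19916 of 19977 identifiers.

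The 16505 genes whose counts summed to 10 or more entered the test. After TMM normalisation, edgeR 4.0.16 was run (glmQLFit and glmQLFTest, medium as the one term) in R 4.3.3, with Benjamini-Hochberg adjustment over all genes tested and a call at an adjusted p under 0.05. SEs were obtained by dividing the log2 fold change by the root of the F statistic. CPM uses the total count of each library multiplied by its TMM factor, which ran from 0.994 to 1.01. The script was tested on simulated data. At a common biological coefficient of variation of 3.12%, well-counted genes are precise and genes under 1 CPM are not. Alternatives were DESeq2 1.42.0, limma-voom (limma 3.58.1), library size alone, other filters, a replicate block and leaving out each library.

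The members and gene lists were chosen with earlier results of these data known. Named are all 10 members, their tested paralogs, at most 10 genes of each regulator list that were called and reached 1 CPM in one medium, and the 5 genes most like OTX2. A few genes of the lists are counted with them but not reported singly here. Upstream sequences are from RefSeq.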

Additional observations from a re-analysis of the deposited data

How the results depend on the processing

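The 7 anterior homeobox genes called (OTX2, SIX3, DMBX1, OTX1, HESX1, SIX6 and GBX2) kept their direction and their call in each of the 13 settings tried, with a highest adjusted p of 0.00996, and OTX2 ranged from -2.13 to -2.04 on the log2 scale. EMX2, with a log2 fold change near 0, changed sign with another filter on low counts (-0.00564), with limma-voom (-0.063) and when single libraries were left out (-0.291 to 0.341), and in none of these was it called. The number of paralogs called was 4, against 1 with DESeq2 and 1 to 4 when single libraries were left out, and SIX2, SIX5 and EMX1 stood close to the threshold.

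With the replicate number as a block, 5 of the anterior homeobox genes were lower and 2 higher, as without it, and 4444 against 4173 genes were called in all. The correlations of the deviations of same-numbered libraries were 0.0229, 0.0394 and 0.0459 over 13557 genes, so the numbers were not taken to pair the libraries. SIX2 lost its call under the block (edgeR adjusted p = 0.0674).

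Each medium has 3 libraries of 1 cell line, and whether they are separate cultures is not given, so the small p-values describe these libraries. Genes at a few counts per library, such as VAX1, GBX1 and CRX, have intervals several fold wide at this depth.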

Other observations

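The nearest protein-coding neighbours on either side of the 7 homeobox genes called were examined after their values were seen. Of 14 neighbours 12 were tested and 5 were called, where 25.3% of all genes tested were called, and of these 5 3 moved in the direction of the homeobox gene beside them and 2 in the other. Beside HESX1, which was lower in PEG and HS, IL17RD, an inhibitor of FGF signalling 27.5 kb away, was higher by 0.81 on the log2 scale (SE 0.028, edgeR adjusted p = 1.56e-11), and APPL1, 0.120 kb away, was higher by 0.12 (SE 0.036, edgeR adjusted p = 0.0215). WDPCP beside OTX1 was lower by a log2 fold change of -0.64 (edgeR adjusted p = 5.53e-06), as were FAAH beside DMBX1 (-0.32, edgeR adjusted p = 0.0165) and SIX2 beside SIX3.

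The neighbours of OTX2 were not called. TMEM260 was at 22.6 ± 1.10 CPM with PEG and HS and 20.5 ± 0.636 CPM with E8 alone (edgeR adjusted p = 0.0773), and EXOC5 at 119 ± 5.14 CPM and 121 ± 3.96 CPM (edgeR adjusted p = 0.815). AGAP1 beside GBX2 was also not called (log2 fold change 0.021, edgeR adjusted p = 0.706).

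DLX5, a homeobox gene of the ventral forebrain, had 2, 1 and 0 counts with PEG and HS and 5, 18 and 12 counts in E8 control (edgeR adjusted p = 0.00412), and FEZF2, a gene of the telencephalon, was at 0.227 ± 0.111 CPM against 0.649 ± 0.238 CPM (edgeR adjusted p = 0.0247). Both are under 1 CPM in each medium and were named after their values were seen.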
